A study of Mus musculus with 22 samples.

Results

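The genes described here encode proteins of the smooth muscle contractile apparatus: Myh11, Acta2, Actg2, Cnn1, Tagln, Lmod1, Des and Synm. They were chosen by name, as the array probe sets annotated to these symbols, and make up 8 of the 19505 named genes on an array of 22203 probe sets. Each was measured by 1 probe set. Expression was measured in 22 colon tumours that azoxymethane, a colon carcinogen, had induced in male FVB/N mice. The formerly obese group (5 tumours) came from mice that had been on the high-fat diet and were then switched to the low-fat one. The obese sulindac group (6 tumours) ate a high-fat diet (60% of energy as fat) and also received sulindac, a non-steroidal anti-inflammatory drug. The obese group (5 tumours) ate the same high-fat diet without the drug, and the control group (6 tumours) ate a low-fat diet (10% of energy as fat). Every mouse carried the carcinogen exposure, controls included, and no tumour-free colon was among the samples. The sources used here do not give the doses, the times, or how much of the colon wall was taken with a tumour.

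Smooth muscle forms the thick outer coat of the colon and the thin muscle layer under its mucosa, and it also lines blood vessels. It contracts when calcium and calmodulin activate the kinase that phosphorylates myosin light chains, so that thick myosin filaments pull on actin filaments anchored at dense bodies. Many genes of this apparatus are known to be switched on by serum response factor and its partner myocardin, which act at a short DNA element called the CArG box. Smooth muscle actin and transgelin are also made by pericytes and by myofibroblasts, the contractile fibroblasts of tumour stroma.

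The CArG box was searched for in the promoters of the genes, on both strands of the window from 250 bases before to 50 bases after the start. RefSeq promoters (GRCm38.p6) were given for 5 of the 8: Acta2, Des, Cnn1, Lmod1 and Synm. A box with all 6 central bases A or T was found in 0 of these 5, against 1.63% of 32851 mouse promoters of the same length. A looser form, with at least 5 of the 6 central bases A or T, was searched for after the strict form gave no match. It was found in Acta2 and Synm, 2 of the 5, against 9.98% of all promoters. Acta2 held 2 matches, and more than 1 match was seen in 0.822% of all promoters. The stretches of 100 bases that carry these matches are shown 5′ to 3′ on the minus strand, with the match in capitals. They show where the element lies in the members that hold it.
Acta2, chr19:34255374-34255473: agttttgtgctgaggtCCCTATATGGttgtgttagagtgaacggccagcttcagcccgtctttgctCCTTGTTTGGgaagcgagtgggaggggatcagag
Synm, chr7:67759893-67759992: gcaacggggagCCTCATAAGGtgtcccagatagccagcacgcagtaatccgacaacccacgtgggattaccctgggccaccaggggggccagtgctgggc
Counted from the start given with each promoter, the Acta2 matches begin 84 and 34 bases before it, and the Synm match begins 239 bases before it. The annotated Acta2 gene spans chr19:34240336-34255585, so the Acta2 stretch lies inside it. The distances in Acta2 therefore do not refer to the outer end of the gene. A match of letters is a description and does not show that a factor binds there.

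Levels are given on the deposited scale, read as log2, on which a difference of 1 is a doubling. Array medians lay between 6.67 and 6.83, and the correlation between any 2 arrays lay between 0.947 and 0.988. Epcam, a surface protein of epithelial cells, lay between 16.67 and 17.43 in the 21 tumours other than formerly obese Mouse_134 and at 17.04 in that tumour. Mouse_134 stood apart from the rest in several of the muscle genes, so the mean of the 8 genes and the differences in it that involve formerly obese tumours are given with and without it. Because each sample is bulk tumour, fewer muscle cells and less muscle RNA per cell cannot be told apart.

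Myh11 encodes the heavy chain of smooth muscle myosin, the motor of the thick filament. Its log2 level was 11.79, 8.57, 7.47, 7.85 and 8.91 in the formerly obese tumours of Mouse_134, Mouse_140, Mouse_146, Mouse_150 and Mouse_152. In obese sulindac tumours the lowest was 7.74, the median 9.29 and the highest 10.41. Obese tumours had 8.31, 8.02, 8.49, 8.42 and 7.65, and control tumours ran from 7.55 through a median of 8.12 to 8.79. The 4 highest tumours of the series were Mouse_134 and the obese sulindac tumours of Mouse_125, Mouse_X and Mouse_129, while the remaining formerly obese tumours, between 7.47 and 8.91, reached on both sides of the obese and control ones.

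Acta2 and Actg2 encode the smooth muscle actins, named for the aorta and the gut. Acta2 had levels of 15.87, 15.57, 14.52, 14.14 and 15.03 in formerly obese tumours, in the same order of mice, and a lowest, median and highest of 15.12, 15.31 and 15.95 in obese sulindac tumours. Obese tumours had 15.27, 14.52, 15.54, 15.55 and 15.13, and control tumours ran from 14.52 through a median of 15.15 to 15.40. The 4 groups overlapped throughout, and Acta2 varied least of the 8 genes over the 22 tumours (SD 0.44). Without Mouse_134 its SD was 0.42, and Lmod1 (0.38) and Synm (0.41) varied less. Actg2, the actin of gut muscle, had 13.30, 12.25, 10.73, 10.82 and 11.30 in formerly obese tumours, and ran from 11.58 through a median of 12.20 to 12.54 in obese sulindac tumours. It had 11.63, 11.04, 11.93, 12.09 and 11.21 in obese tumours, and ran from 10.48 through a median of 11.45 to 11.83 in control tumours. All obese sulindac tumours but Mouse_124 lay above every obese and every control tumour in Actg2. The margin was small for Mouse_114 (12.11) and Mouse_X (12.13), against 12.09 in obese Mouse_109.

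Cnn1, Tagln and Lmod1 encode proteins of the thin filament. Cnn1, or calponin, binds actin and restrains the myosin motor; it had 12.65, 9.88, 7.67, 8.30 and 8.10 in formerly obese tumours, and ran from 7.73 through a median of 9.03 to 9.52 in obese sulindac tumours. It had 8.43, 7.61, 9.32, 8.49 and 8.16 in obese tumours, and ran from 7.56 to 9.05 in control tumours. Mouse_134 lay 2.77 above the next tumour, Mouse_140, and the other tumours overlapped between all groups.

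Tagln, or transgelin, cross-links actin; it had 11.91, 11.43, 9.25, 9.86 and 10.69 in formerly obese tumours and a range of 10.28 to 11.41 in obese sulindac tumours. It had 10.18, 9.82, 10.14, 10.79 and 10.28 in obese tumours and a range of 9.38 to 10.91 in control tumours, so that formerly obese tumours held both the highest and the lowest level of the series. Lmod1, or leiomodin, starts new actin filaments in smooth muscle. It had 7.23, 5.71, 5.18, 5.42 and 5.88 in formerly obese tumours, and a lowest, median and highest of 5.70, 6.17 and 6.65 in obese sulindac tumours. Obese tumours had 5.47, 5.22, 5.43, 5.50 and 5.85, and control tumours ran from 5.33 through a median of 5.73 to 5.86. All obese sulindac tumours but Mouse_114 exceeded every obese and every control tumour in Lmod1.

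Des and Synm encode desmin and synemin, intermediate filament proteins that tie the contractile lattice to dense bodies and the membrane. Des had 10.39, 7.72, 5.52, 6.87 and 6.37 in formerly obese tumours and a range of 6.29 to 7.59 in obese sulindac tumours. It had 7.23, 6.81, 7.50, 6.95 and 6.35 in obese tumours and a range of 6.63 to 7.47 in control tumours. Formerly obese tumours again spanned the whole range of the series, with Mouse_134 at its top and Mouse_146 at its bottom. Synm had 6.35, 5.06, 5.21, 4.37 and 4.93 in formerly obese tumours and a range of 4.44 to 5.84 in obese sulindac tumours. It had 4.42, 4.84, 5.05, 5.16 and 4.73 in obese tumours and a range of 4.35 to 5.64 in control tumours. Its groups overlapped almost entirely apart from Mouse_134.

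**Figure D1:**
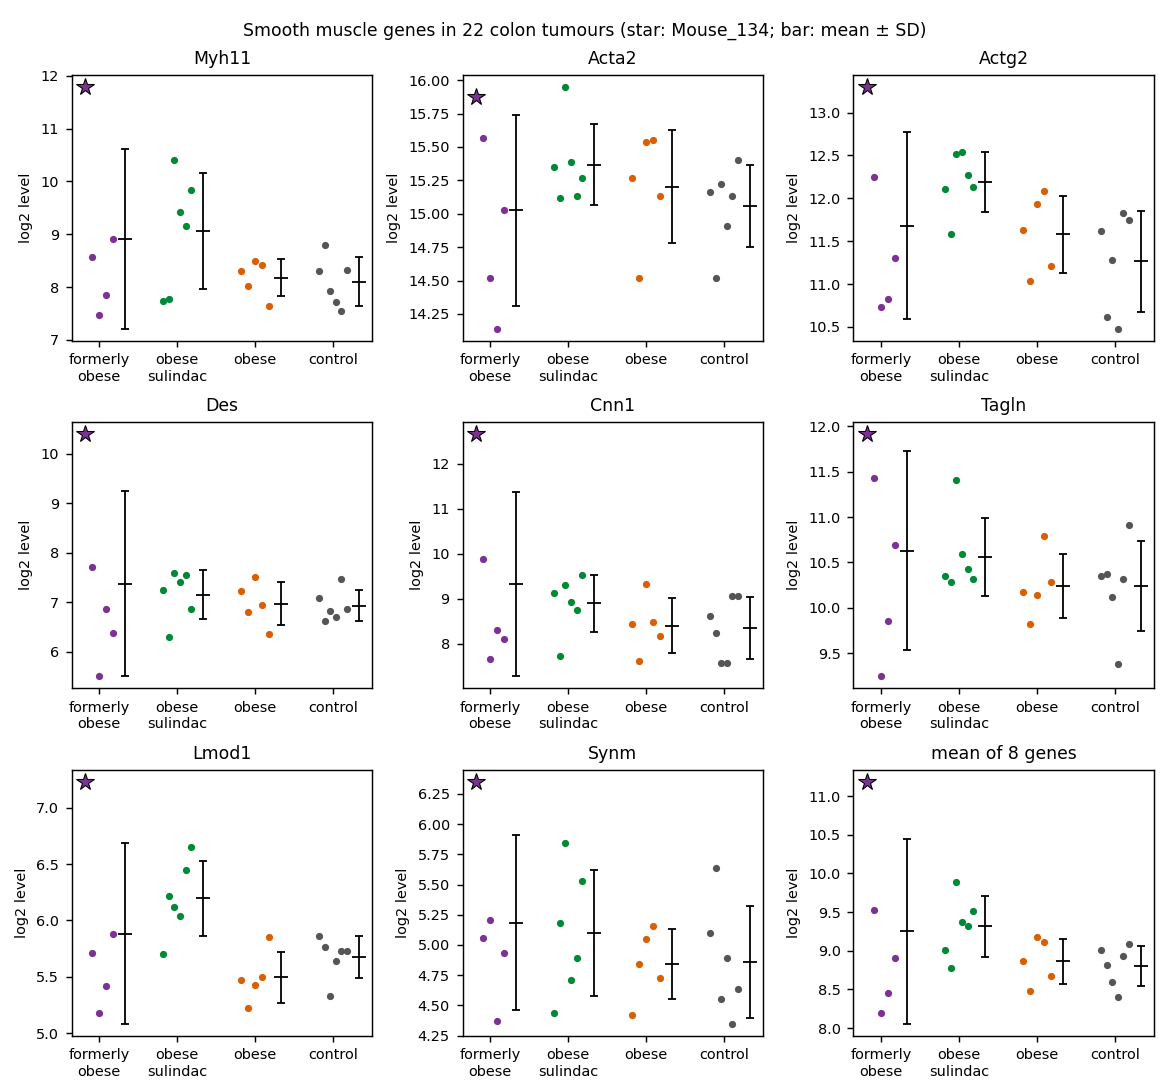
Log2 level of each gene, and of the mean of the 8, by regimen, with each point a tumour, the bar the group mean and the error bar the SD between tumours (n = 5 formerly obese, 6 obese sulindac, 5 obese, 6 control). The marked tumour, formerly obese Mouse_134, is the highest of the 22 for every gene except Acta2.

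The mean level of the 8 genes was used as a summary of muscle gene RNA per tumour. It does not separate muscle cells from the pericytes and myofibroblasts that also make smooth muscle actin and transgelin. It was 9.25 ± 1.19 in formerly obese tumours (SD, n = 5), or 8.77 ± 0.58 without Mouse_134 (n = 4). It was 9.32 ± 0.39 in obese sulindac tumours (n = 6), 8.86 ± 0.29 in obese tumours (n = 5) and 8.81 ± 0.26 in control tumours (n = 6). In order of group means, obese sulindac and formerly obese lay at the top and obese and control at the bottom. The gap between each pair of neighbours in that order was smaller than the SD of at least 1 group of the pair. Without Mouse_134, formerly obese moved to the bottom of the order. No p-value is given for this mean, because the genes were chosen with earlier results known.

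The first comparison asked whether the obese diet itself went with another level of muscle genes. Obese and control tumours were close: 6 of the 8 genes had a higher mean in obese tumours, where 49.1% of all probe sets did, and the mean of the 8 differed by 0.05. The differences ran from -0.18 for Lmod1 to 0.32 for Actg2. The 95% interval of the Myh11 difference, from -1.13 to 1.28, leaves room for differences in either direction. No gene passed the adjusted threshold of 0.05 (limma, 0 of 8; 0% of all probe sets) and none passed an unadjusted p of 0.05, which 4.03% of all probe sets did. For 0 of the 8 genes did the groups fail to overlap, against 0.383% of probe sets.

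The second comparison asked whether muscle genes differed after the switch away from the high-fat diet. In formerly obese tumours 7 of the 8 genes had a higher mean than in obese tumours, where 50.7% of all probe sets did, and the mean of the 8 was higher by 0.39. The largest differences were 0.92 ± 0.65 for Cnn1 and 0.74 ± 0.60 for Myh11 (SE), with adjusted p of 0.890 and 0.908 in limma and exact permutation p of 0.452 and 0.476. Acta2 was the gene with a lower mean, by -0.18. No gene passed the adjusted threshold (0 of 8; 0% of probe sets) or an unadjusted p of 0.05 (0 of 8; 5.69% of probe sets). The groups overlapped for all 8, against 0.878% of probe sets without overlap.

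Mouse_134 decided these values. Without it the Cnn1 difference was 0.09, that of Myh11 0.02, of Des -0.35, of Actg2 -0.31 and of Acta2 -0.39. The mean of the 8 then differed by -0.10, with 5 of the 8 genes higher, against 51.1% of all probe sets. Formerly obese tumours also varied more than obese ones in the mean of the 8, with or without that tumour, as the SDs above show; this spread was not tested.

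The third comparison asked whether sulindac treatment of obese mice went with another level of muscle genes. Each of the 8 genes had a higher mean in obese sulindac tumours than in obese tumours, where 51.7% of all probe sets did, and the mean of the 8 was higher by 0.45. Lmod1 was higher by 0.70 ± 0.26 (SE; 95% interval 0.17 to 1.24; 1.63-fold), with an unadjusted p of 0.0123 and an adjusted p of 0.698 in limma. Its exact two-sided permutation p was 0.00866, and 5 of 6 obese sulindac tumours exceeded every obese tumour. Actg2 was higher by 0.61 ± 0.38 (interval -0.17 to 1.39). Its adjusted p was 0.828 in limma and its exact permutation p 0.0390. Again 5 of 6 tumours lay above every obese one, the lowest of them at 12.11 against 12.09. The share of all probe sets with 5 of 6 tumours above was not computed. Myh11 was higher by 0.88 ± 0.58 (interval -0.32 to 2.08), with an adjusted p of 0.850 and an exact permutation p of 0.108.

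No gene passed the adjusted threshold in obese sulindac against obese tumours (0 of 8; 0% of probe sets). Lmod1 alone passed an unadjusted p of 0.05 (1 of 8; 6.55% of all probe sets). The groups overlapped for all 8 genes, against 0.676% of probe sets without overlap. The fit shares its estimate of the spread between all groups, and without Mouse_134 the SE of the Lmod1 difference was 0.17. That difference then had an unadjusted p of 0.000448 and an adjusted p of 0.564, and Myh11 reached an unadjusted p of 0.0426 with an adjusted p of 0.730. Then 2 of the 8 genes passed the unadjusted threshold, against 6.67% of probe sets. The 48 single-gene exact tests over the 6 comparisons were not adjusted, and groups of 5 and 6 cannot give an exact p under 0.00433.

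**Figure D2:**
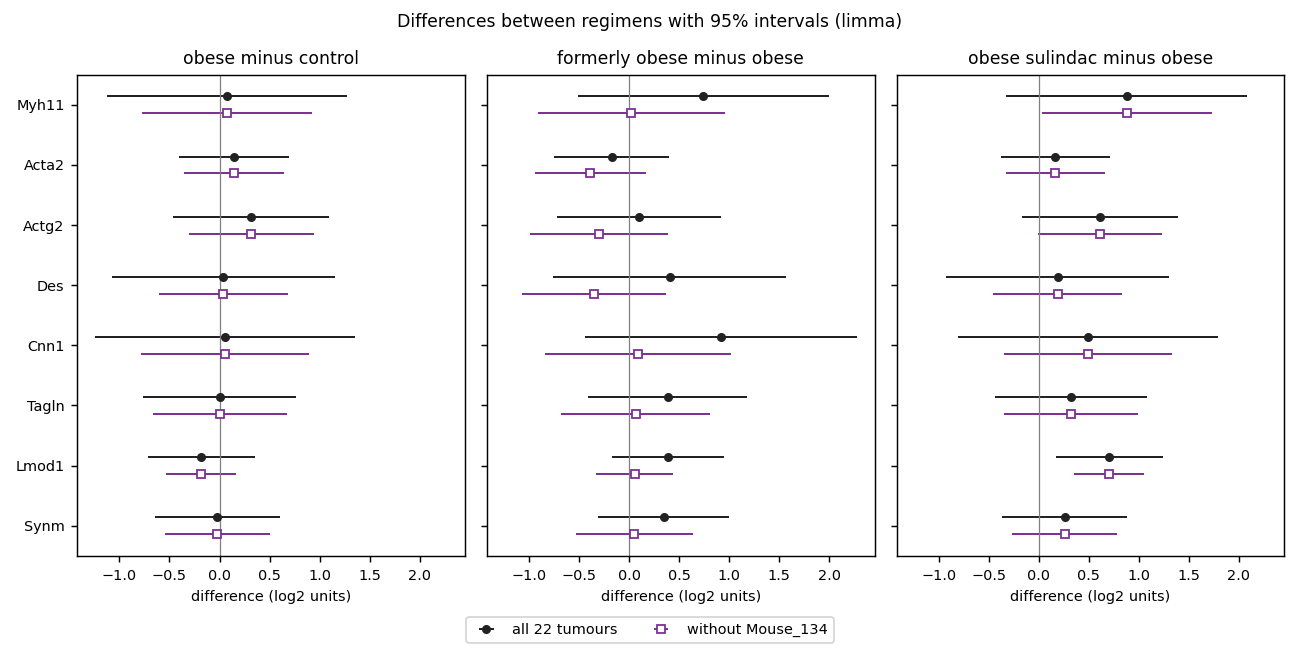
Difference in log2 level between regimens for each gene in the 3 main comparisons, with the 95% interval from limma; filled points use all 22 tumours and open squares leave out formerly obese Mouse_134. In obese sulindac minus obese all 8 points lie above 0, from 0.17 for Acta2 to 0.88 for Myh11, while in formerly obese minus obese the Cnn1 point lies at 0.92 with all tumours and at 0.09 without Mouse_134.

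The other pairs of groups use the same tumours, so their values are not independent of those above. Obese sulindac tumours had a higher mean than control tumours in all 8 genes (50.4% of all probe sets), led by Myh11 at 0.95 ± 0.55 and Actg2 at 0.93 ± 0.36. Actg2 and Lmod1 passed an unadjusted p of 0.05 there (2 of 8; 6.63% of probe sets), with adjusted p of 0.704 and 0.750 in limma and exact permutation p of 0.00866 and 0.0108. Formerly obese tumours had a higher mean than control tumours in 7 of the 8 genes (49.5% of probe sets), and in 5 without Mouse_134 (49.9%), with the mean of the 8 differing by 0.44 and by -0.04. Formerly obese tumours were higher than obese sulindac tumours in 4 of the 8 (50.2%) and in 0 without Mouse_134 (49.9%), and the mean of the 8 differed by -0.06 and by -0.55. Without Mouse_134, Lmod1 differed by -0.65, Actg2 by -0.92 and Acta2 by -0.55, and these 3 of 8 passed an unadjusted p of 0.05 (5.68% of probe sets) with adjusted p of 0.821 or more. None of the 8 passed the adjusted threshold in any of these pairs (0% of probe sets in each). At an unadjusted p of 0.05, 0 of 8 passed in formerly obese against control (5.54% of probe sets) and in formerly obese against obese sulindac tumours (6.62%). The groups overlapped for all 8 genes, where 0.423% of probe sets separated formerly obese from control tumours, 0.297% obese sulindac from control and 0.567% formerly obese from obese sulindac. An F test over the 4 groups called 0 of 8 at either threshold, and 0% of probe sets adjusted or 6% unadjusted. Of the variance of Lmod1, 30.6% lay between groups, as did 25.2% for Actg2 and 3.86% for Des, against a median of 12.8% over all probe sets.

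Most of the variation in these genes lay between tumours of the same regimen. Cnn1, Myh11 and Des had SDs over the 22 tumours of 1.11, 1.05 and 0.90, at the 96.4th, 95.7th and 93.8th percentiles of all probe sets, whose median SD was 0.35. Without Mouse_134 the SDs were 0.70, 0.79 and 0.53. Lmod1, with an SD of 0.49, lay at the 75.7th percentile, and without that tumour at the 59.3rd.

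The tumour of Mouse_134 was the highest of the 22 in 7 of the 8 genes. It was also the highest for 6.94% of all probe sets, and 2 other tumours, Mouse_X and control Mouse_26, were highest for more. It lay above the next tumour by 2.77 in Cnn1, 2.67 in Des, 1.38 in Myh11, 0.76 in Actg2, 0.58 in Lmod1, 0.51 in Synm and 0.48 in Tagln. In Acta2 it was second, at 15.87 against 15.95 in obese sulindac Mouse_125. Against the mean of the other 4 formerly obese tumours it was higher in all 8 genes, by 1.06 in Acta2 up to 4.16 in Cnn1. Over all probe sets the same difference had a median of -0.04. Acta2 lay at the 96.1st percentile of that difference and Cnn1 at the 99.7th.

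**Figure D3:**
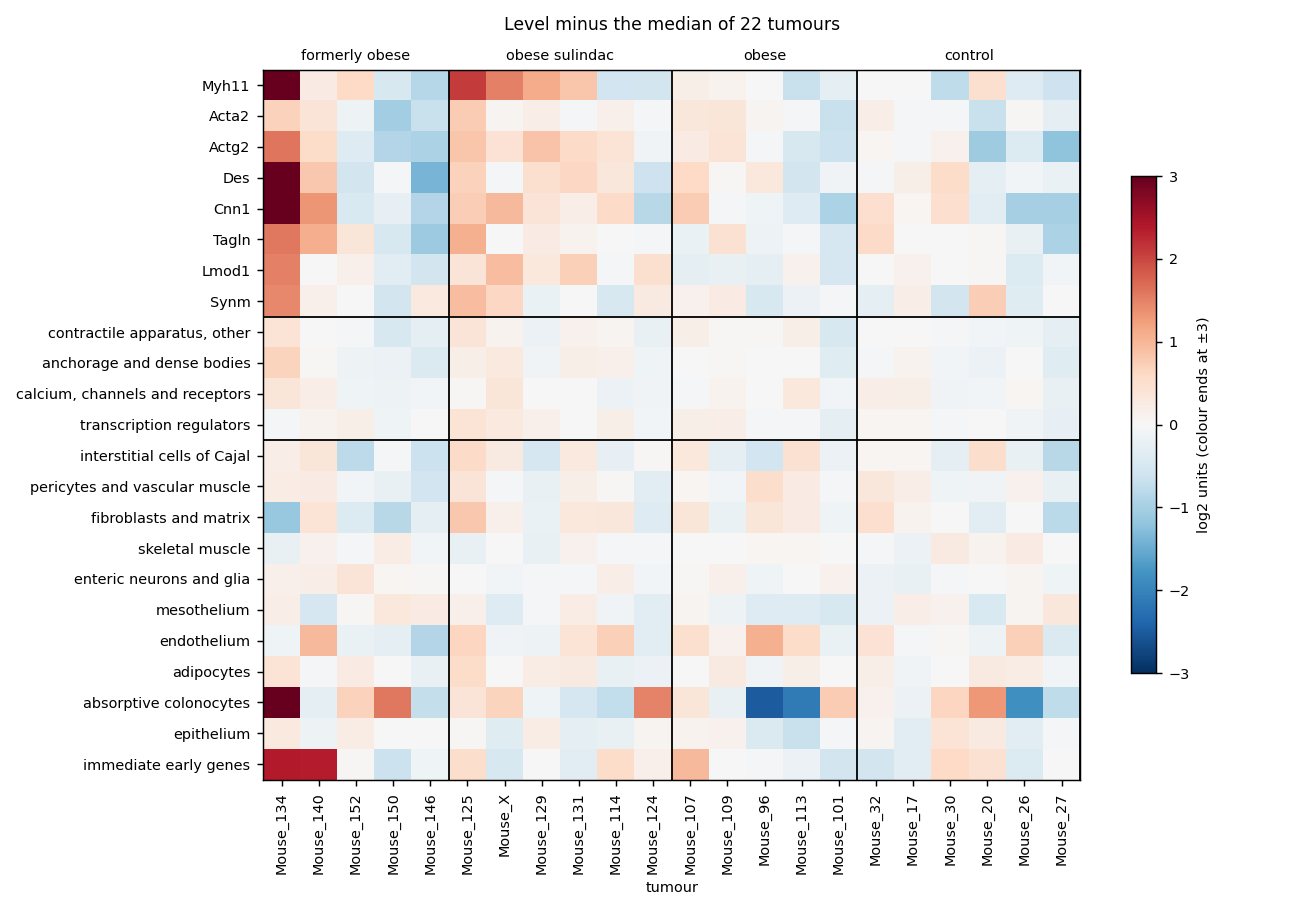
Log2 level of the 8 genes, and mean level of each of 15 lists, in the 22 tumours (columns, by regimen) minus the median over all tumours, in log2 units, with colours ending at 3 on either side. Mouse_134 is high in Cnn1, Des, Myh11 and the absorptive colonocyte list and low in the fibroblast and matrix list.

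The wider muscle machinery was followed in lists of other genes. Of 65 such genes in 4 lists, 58 were measured, and 0 passed the adjusted threshold in any of the 6 comparisons (0% of all probe sets in each). Beside the list counts below, 51.7% of all probe sets had a higher mean in obese sulindac than in obese tumours. In formerly obese against obese tumours 50.7% did, or 51.1% without Mouse_134. In 14 other genes of the contractile apparatus, 9 had a higher mean in obese sulindac than in obese tumours, with a median difference of 0.03 beside 0.01 over all probe sets. The smallest p values belonged to Myl9 (0.51 ± 0.32), the regulatory light chain of smooth muscle myosin, Tpm2 (0.59 ± 0.44), a tropomyosin, and Myl6 (0.17 ± 0.17), an essential light chain. In formerly obese against obese tumours 7 of the 14 were higher, and 3 without Mouse_134, with a median difference of -0.02, or -0.14 without it. Cald1 (caldesmon) and Ppp1r12b, a myosin phosphatase subunit, were lower by -0.61 ± 0.30 and -0.59 ± 0.31.

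Of 20 measured genes of anchorage and dense bodies, 12 had a higher mean in obese sulindac than in obese tumours, beside 51.7% of all probe sets. Pdlim3, a binding partner of the actin cross-linker actinin, averaged 10.12 ± 0.67 in obese sulindac tumours and 8.98 ± 0.39 in obese tumours (SD), a difference of 1.14 ± 0.44 (SE; limma adjusted p 0.698). Hspb6, a small heat shock protein that relaxes smooth muscle, differed by 0.99 ± 0.42 (adjusted p 0.721), and Fhl1, a LIM-domain protein, by 0.54 ± 0.32. In formerly obese against obese tumours 13 of the 20 were higher, and 7 without Mouse_134. Sgca, a sarcoglycan, was higher there by 0.47 ± 0.20 (adjusted p 0.866), and Flna and Actn1, which cross-link actin, differed by -0.54 ± 0.27 and -0.50 ± 0.27. In obese against control tumours the smallest p values in this list belonged to Flna (0.39 ± 0.25), Csrp1 (0.29 ± 0.25) and Itga7 (0.31 ± 0.28).

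Among 13 measured genes for calcium, channels and receptors, 4 had a higher mean in obese sulindac than in obese tumours (51.7% of all probe sets), with a median difference of -0.04. Pde5a, which degrades cyclic GMP, differed by -0.53 ± 0.32. In formerly obese against obese tumours 8 of the 13 were higher, and 7 without Mouse_134. Tacr2, a tachykinin receptor of gut muscle, differed by 0.49 ± 0.25, or by 0.17 without Mouse_134, while Kcnmb1, a potassium channel subunit, differed by -0.51 ± 0.25. Of 11 transcription regulators, 8 were higher in obese sulindac than in obese tumours and 5 in formerly obese than in obese tumours, or 6 without Mouse_134. Myocd (myocardin) differed by 0.37 ± 0.25 in obese sulindac and by 0.20 ± 0.26 in formerly obese against obese tumours. Srf (serum response factor) differed by 0.15 ± 0.24 in obese sulindac and by 0.52 ± 0.25 in formerly obese against obese tumours, with adjusted p of 0.956 and 0.874 in limma.

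Mouse_134 was the highest tumour for 6.94% of all probe sets. Beside that share, it was highest in 6 of the 14 other contractile genes and in 7 of the 20 anchorage genes. It was highest in 3 of the 13 calcium and channel genes and in 0 of the 11 regulators. For a list of 11 genes, 0 is near that share. Tpm2, Pgm5 and Tacr2 are named here after their values were seen: Tpm2 was at 11.68 against 10.28 in the next tumour, Pgm5, a dense plaque protein, at 9.24 against 7.56, and Tacr2 at 6.26 against 5.16. Within the contractile list, Tpm1 was at rank 3 and Ppp1r14a at rank 4, while Cald1 was at rank 18 and Myh10, a non-muscle myosin, at rank 21. Tpm1, Ppp1r14a and Myh10 are likewise named after their values were seen. Of the regulators, Myocd was at 4.51, rank 17. Srf, at 10.58, was second of the 22.

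Markers of other cell types were read beside these values, as the mean level of each list. Absorptive colonocyte genes averaged 13.99 in Mouse_134, against 8.07 to 12.15 in the other 21 tumours. Mouse_134 was highest in 8 of 9 of these genes, beside 6.94% of all probe sets. Immediate early genes, which respond to stimulation and to tissue handling, averaged 12.71, against 9.70 to 12.70 in the others, with Mouse_140 next. Fibroblast and matrix genes averaged 9.87, the lowest of the 22, against 10.18 to 11.81 in the others, and Col1a1, the main chain of type I collagen, was at 9.50 against 9.59 to 12.25. Skeletal muscle genes averaged 5.04, rank 21, against 5.04 to 5.53, with Myh1, Myh2 and Atp2a1 among the dimmest probe sets on the array.

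Other lists in Mouse_134 lay within the range of the other tumours. Enteric neuron and glia genes averaged 5.22 (range of the others 4.84 to 5.45), mesothelium genes 5.22 (4.50 to 5.35) and pericyte and vascular muscle genes 6.98 (6.19 to 7.29). Interstitial cells of Cajal averaged 10.36 (9.33 to 10.73), endothelium 8.31 (7.57 to 9.51), adipocytes 6.06 (5.43 to 6.20) and general epithelium 16.14 (15.17 to 16.25). Arrays give no true zero, so no marker can be said to be at 0. The part of colonocyte, fibroblast or immediate early genes in the levels of the muscle genes was not tested.

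Between the regimens, no gene of these lists passed the adjusted threshold in any of the 6 comparisons (0% of all probe sets in each). Over all probe sets, 51.7% had a higher mean in obese sulindac than in obese tumours. In formerly obese against obese tumours 50.7% did, or 51.1% without Mouse_134. Absorptive colonocyte genes were higher in obese sulindac than in obese tumours in 9 of 9, with list means of 10.76 ± 0.83 and 9.82 ± 1.48 (SD). They were higher in formerly obese than in obese tumours in 9 of 9 as well, with 11.50 ± 1.65 in formerly obese tumours, or 10.87 ± 1.03 without Mouse_134. Fibroblast and matrix genes were higher in 6 of 9 in obese sulindac tumours, where the list mean was 11.18 ± 0.42 against 11.15 ± 0.27 in obese tumours. They were lower than in obese tumours in 9 of 9 in formerly obese tumours, at 10.56 ± 0.59, or in 8 of 9 without Mouse_134, at 10.73 ± 0.51. Pericyte and vascular muscle genes were higher in 3 of 8 in obese sulindac and in 1 of 8 in formerly obese than in obese tumours. Endothelial genes were higher in 2 of 8 in obese sulindac and in 1 of 8 in formerly obese than in obese tumours, or in 0 of 8 without Mouse_134. Obese tumours themselves were higher than control tumours in 8 of 8 endothelial and 0 of 9 colonocyte genes (49.1% of all probe sets). Obese sulindac tumours were higher than control tumours in 5 of 8 and 7 of 9 of these (50.4%). Formerly obese tumours were higher than control tumours in 1 of 8 and 8 of 9 (49.5%), and likewise without Mouse_134 (49.9%).

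The 8 genes varied together from tumour to tumour. Over the 28 pairs, Pearson's r across the 22 tumours ran from 0.36 to 0.90 with a median of 0.71, and Spearman's rho had a median of 0.57. After Benjamini-Hochberg adjustment over the 28 pairs, 25 passed a p of 0.05 by Pearson's r and 20 by Spearman's rho (permutation tests). The genes were chosen with earlier results of these data known, and the share over all pairs of probe sets was not computed. The highest r was between Des and Cnn1, 0.90 (rho 0.81), and the actin pair Acta2 and Actg2 had 0.84 (rho 0.83), each with an adjusted permutation p of 7e-05 for r and 9.33e-05 for rho. Part of this rested on Mouse_134: without it the median r was 0.55, and 27 of 28 pairs stayed above 0. Des with Cnn1 then had 0.73 and Acta2 with Actg2 0.82. Without the 2 tumours farthest from the median of the first gene of a pair, the median r was 0.48.

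Synm was the gene least tied to the others. It was also the dimmest of the 8, with a mean of 4.99 over the 22 tumours, at the 32.5th percentile of probe sets. The part of low signal in its correlations was not tested. With Acta2 its r was 0.36 (rho 0.22; adjusted permutation p 0.0968 for r and 0.373 for rho), and with Des its r was 0.44 (rho 0.01), or -0.12 without Mouse_134. Myh11 and Lmod1 had an r of 0.79 (rho 0.60; adjusted permutation p 0.000342 and 0.00797), or 0.63 without Mouse_134. After removal of group means and of that tumour, the median r over the 28 pairs was 0.43.

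**Figure D4:**
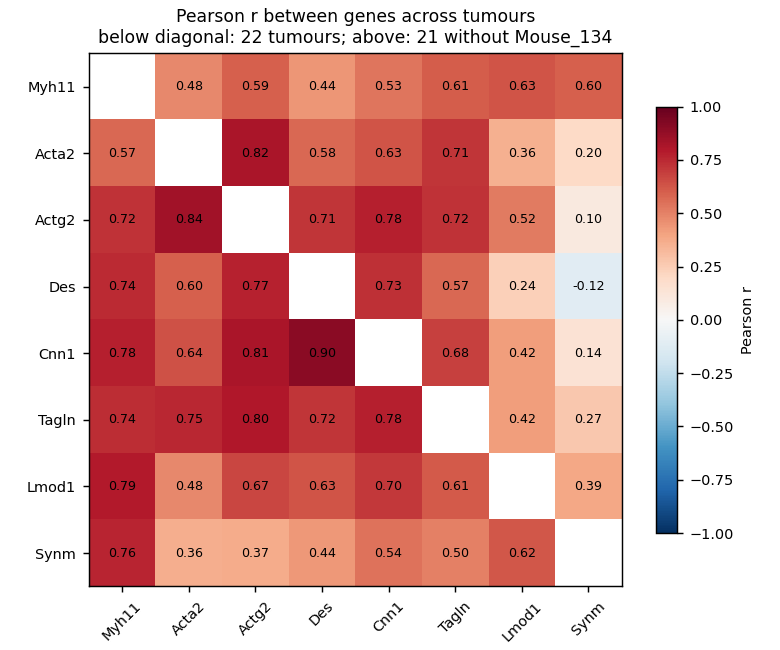
Pearson's r between each pair of the 8 genes, below the diagonal over all 22 tumours and above it over the 21 without formerly obese Mouse_134. The actin pair Acta2 and Actg2 stays at 0.84 and 0.82, while Des and Synm have 0.44 and -0.12.

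Myh11 was set against single markers of other cell types, of which 10 of the 12 planned had a named probe set. Slc26a3, a chloride exchanger of mature colonocytes, had an r of 0.67 over the 22 tumours (adjusted permutation p 0.0168) and a rho of 0.58 (adjusted permutation p 0.0547). Its r was 0.49 without Mouse_125 and Mouse_134, the farthest from the Myh11 median, and 0.43 without Mouse_134 alone. Fos, an immediate early gene, had an r of 0.45 (adjusted permutation p 0.174; rho 0.29, adjusted permutation p 0.388) and 0.03 without the same 2 tumours. Col1a1 had an r of -0.16 (adjusted permutation p 0.650; rho 0.03, adjusted permutation p 0.894), and 0.15 without Mouse_134. Kit, Msln, Pdgfrb, Pecam1, Acta1, Epcam and Lgr5 had r from -0.40 for Acta1 to 0.17 for Pecam1, with adjusted permutation p of 0.202 or more.

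Genes outside the lists whose pattern was most like the mean of the 8 were ranked by Pearson's r, as a description without a test. Over 22 tumours these were Ssbp2 (0.88), Mcl1 (0.85), Sult1c2 (0.83), Slc16a9 (0.82), Dgkh (0.82), Dnajb4 (0.82), Flrt1 (0.80), Flrt3 (0.79), Plscr4 (0.78) and Zfp385b (0.78). Mouse_134 had the highest level of all 10; in Sult1c2 it lay at 12.37, against at most 8.03 elsewhere. Over the 21 other tumours the ranking was led by Ssbp2 (0.86), Mmp2 (0.85), Parp2 (0.83), Dnajb4 (0.79) and Col6a2 (0.77).

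Mmp2, a matrix-degrading enzyme, and Col6a2, a chain of type VI collagen, had r of -0.01 and 0.35 over all 22 tumours. The 9 fibroblast and matrix genes had a median r with the mean of the 8 of 0.56 over the 21 tumours and -0.06 over the 22, beside -0.01 and -0.02 over all probe sets. The absorptive colonocyte genes went the other way, with a median r of 0.08 over the 21 tumours and 0.40 over the 22. Mouse_134 held the highest mean of the 8 muscle genes and of the colonocyte genes, together with the lowest mean of the matrix genes.

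**Figure D5:**
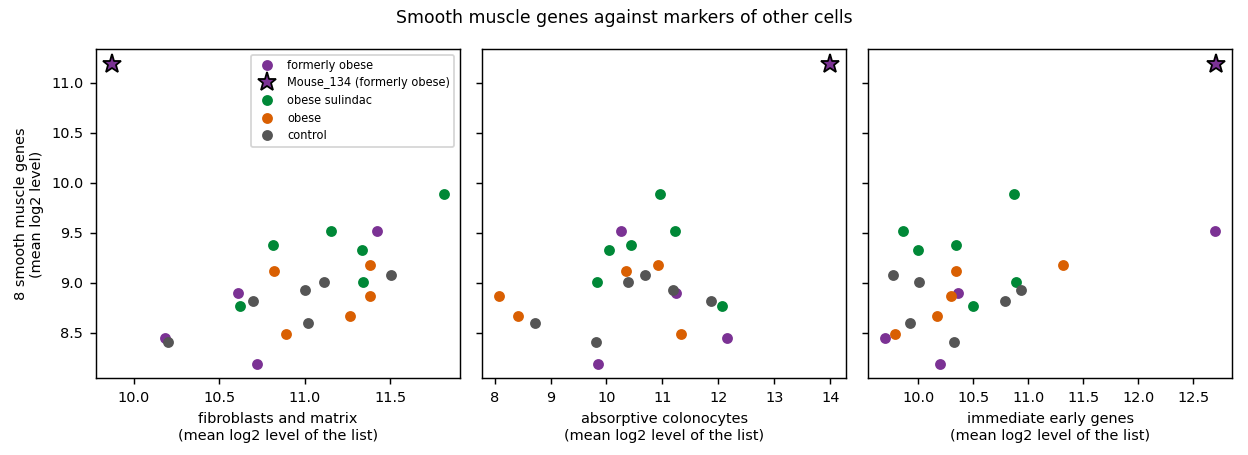
Mean log2 level of the 8 genes (vertical axis) against the mean log2 level of the fibroblast and matrix, absorptive colonocyte and immediate early lists (horizontal axes), with each point 1 of the 22 tumours, coloured by regimen. Mouse_134, the star, lies at 11.19 for the 8 genes, against at most 9.89 elsewhere, and at the lowest matrix level, 9.87.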

How the data were processed

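Total RNA of 22 tumours was isolated with TRIzol, and labelled targets made with the WT PLUS kit were measured on Clariom S arrays, per the labels. The deposited values are levels read as log2, with 2 decimals, from 3.34 to 19.49. Per the submitters' processing notes, Transcriptome Analysis Console 4.0 was used. Not given in the sources used here: the log base, probe summarization, background correction and normalization. Levels are relative to the rest of each array, so differences in total RNA are not seen, and the number of arrays limits the precision. Each tumour has its own mouse number in its title except Mouse_X, whose number is not given.

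Groups followed the diet and sulindac labels. A mean per group was fitted to all 22203 probe sets with limma 3.58.1 in R 4.3.3 (lmFit, eBayes) and p-values were adjusted by Benjamini-Hochberg over all of them, with a threshold of 0.05 and no filter on dim probe sets. Single genes were also compared by exact two-sided permutation tests, and correlations by 100000 permutations (scipy 1.17.1). The scripts were tested on simulated data. Where a gene had several probe sets, the one with the highest mean over all arrays was used. Gene symbols came from the array's annotation, and Mkl1 and Mkl2 were read under their current symbols Mrtfa and Mrtfb.

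The genes and the 15 lists were chosen with earlier results of these data known, so no p-value is given for the mean of a list. The permutation p-values of the correlations were adjusted over the 28 pairs of the 8 genes, or over the 10 single markers set against Myh11. Of the 160 list genes, 145 were measured. The text names the 8 genes, up to 3 genes of each muscle list with the smallest p in a main comparison, Myocd and Srf, 10 single markers, and the 10 and 5 genes most like the mean of the 8 over 22 and 21 tumours. A few more muscle list genes are named for their level in Mouse_134. Alternatives left out each tumour, centred arrays on the median, normalized by quantiles, averaged the probe sets of a gene, left out probe sets in the lower quartile of levels, used a trended robust prior or array weights, fitted only the groups compared, and took the median over the 8 genes.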

Additional observations from a re-analysis of the deposited data

Results flagged for a closer look

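Within each regimen, the highest and lowest tumours were compared with their nearest neighbour for the 8 genes and their mean, which made 36 checks. In 2 of them a tumour lay far from the others. Chance gives about 1 in 20, so 2 of 36 is near the count that chance alone would give. The checks are not independent, because the 8 genes vary together and their mean is made from them. Both far values belonged to the obese sulindac tumour of Mouse_125. Its Acta2 level was 15.95, against 15.39 in the next obese sulindac tumour, a gap of 0.675 of the group's range. Its Tagln level was 11.41, against 10.59 in the next, a gap of 0.726 of the range. Without Mouse_125 the mean of the 8 genes was higher in obese sulindac than in obese tumours by 0.34. The tumour of Mouse_134 was not singled out by this check for any of the 8 genes or their mean. The cause of either gap was not tested.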

How the results depend on the processing

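Over 30 settings, 22 of which left out a tumour, 30 of 754 recomputed single-gene differences and 10 of 174 recomputed differences in the mean of the 8 turned sign. The single-gene count covers the 3 main comparisons, and only Actg2 and Lmod1 in obese sulindac minus control. Single genes were not recomputed for the comparisons of formerly obese with control or obese sulindac tumours. The count for the mean covers all 6 comparisons. Many of these differences could not change. Leaving out a tumour of a group not compared, the trended robust prior and the fit of only the groups compared leave a difference as it was. The totals therefore do not give how often a sign turned where it could. No gene passed the adjusted threshold in any setting (smallest limma adjusted p 0.468). With array weights, obese minus control was -0.012 for Cnn1, -0.038 for Tagln and 0.057 for Synm, and formerly obese minus obese was -0.11 for Actg2. For Tagln, obese minus control was -0.028 with median centring and -0.0026 with quantile normalization. Leaving out each tumour, obese minus control ran from -0.036 to 0.21 for Myh11, -0.093 to 0.19 for Des, -0.17 to 0.26 for Cnn1, -0.17 to 0.13 for Tagln and -0.12 to 0.13 for Synm. Leaving out each tumour, formerly obese minus obese ran from -0.39 to 0.046 for Acta2, -0.31 to 0.34 for Actg2 and -0.35 to 0.87 for Des, and obese sulindac minus obese from -0.0042 to 0.25 for Acta2. Leaving out each tumour, the mean of the 8 ran from -0.026 to 0.15 for obese minus control, below 0 without control Mouse_27, obese Mouse_107 or obese Mouse_109. It ran from -0.095 (without Mouse_134) to 0.65 (without Mouse_146) for formerly obese minus obese, and from 0.34 (without Mouse_125) to 0.56 for obese sulindac minus obese. Formerly obese minus control ran from -0.041 (without Mouse_134) to 0.71. Formerly obese minus obese sulindac ran from -0.55 to 0.20, above 0 without Mouse_125, Mouse_146, Mouse_150 or Mouse_152. Taking the median over the 8 genes gave 0.76 for formerly obese minus obese, 0.69 for obese sulindac minus obese, 0.82 for formerly obese minus control, 0.75 for obese sulindac minus control and 0.07 for formerly obese minus obese sulindac. For the mean of the 8, array weights gave 0.18 for formerly obese minus obese, 0.23 for formerly obese minus control and -0.22 for formerly obese minus obese sulindac. In that mean, median centring gave 0.026 for obese minus control, and median centring and quantile normalization gave -0.0033 and -0.032 for formerly obese minus obese sulindac. The causes were not tested. Averaging the probe sets of a gene changed nothing for the 8, which have 1 each. No paired analysis was possible because the regimens share no mouse numbers. Groups of 5 and 6 arrays leave wide intervals, and the deposited values do not say which levels lie above background.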
